A study of Mus musculus with 12 samples.

Results

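The transcripts described here are those of 10 mouse genes grouped around the transport and interconversion of lactate and pyruvate, though not all of them carry lactate. They are the monocarboxylate transporter genes Slc16a1, Slc16a3, Slc16a4, Slc16a7 and Slc16a10, the transporter subunit gene Bsg, the mitochondrial pyruvate carrier genes Mpc1 and Mpc2, and the lactate dehydrogenase genes Ldha and Ldhb. They were chosen by symbol, and all 10 were found among the 24061 gene identifiers of the count table. RNA came from whole hearts of male mice aged 4 months. The 6 control hearts, labelled wild type and here W1 to W6, were Slc4a4flx/flx and carried no Cre. The 6 knockout hearts, K7 to K12, were Slc4a4flx/flx(Cre), in which Cre under the β-myosin promoter, brought in by breeding with C57Bl6 mice, deletes exon 12 of Slc4a4 in cardiac myocytes. Slc4a4 encodes NBCe1, a sodium-bicarbonate cotransporter of the plasma membrane. Both groups thus carried the floxed alleles and Cre was present in knockouts alone, so the deletion and Cre itself cannot be told apart. Non-myocytes kept the gene, and the RNA came from all cells of the heart.

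Some monocarboxylate transporters of the SLC16 family, here those of Slc16a1, Slc16a3 and Slc16a7, carry lactate and pyruvate together with a proton. Lactate export thus also removes acid from a working cell, and lactate import brings acid in. Lactate dehydrogenase interconverts pyruvate and lactate, and the mitochondrial pyruvate carrier admits pyruvate to the mitochondrial matrix for oxidation. The heart is known as a consumer of lactate. A bicarbonate cotransporter and proton-coupled lactate transport both act on the pH of the myocyte, and the comparison shows whether transcripts of the lactate route differed between the genotypes.

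The libraries held 10631869 to 13327519 counts each. The markers of cardiac myocytes, 6 genes including Myh6 and Tnnt2, summed to 33200 to 41116 CPM in the 12 hearts, and all 6 were detected. CPM is the usual read count scaled for the size of its library, here after TMM scaling. Slc4a4 itself ran from 63.6 to 105.7 CPM in wild-type hearts (median 90.1) and from 38.4 to 68.5 CPM in knockout hearts (median 47.6), with no wild-type value as low as those of 5 of the 6 knockouts (log2 fold change -0.81, SE 0.14, edgeR adjusted p = 0.089). Reads of the exons that Cre leaves in place are part of these values. W2 stood apart in red cell markers, with 30645 CPM summed over the 6 genes of that list that have a row, against 4566 to 14181 CPM in the other 11 hearts. The red cell list also had a lower mean sum for the knockouts, 6712 CPM against 11768 CPM for the wild-type group. W2 raised the wild-type mean. The medians lay closer, with 6289 CPM for the knockouts against 6962 CPM for the wild-type group, and the ranges overlapped. All 5 tested genes of the red cell list had an unadjusted edgeR p under 0.05, lower in knockout, and 0 were called. Hba-a1 and Hba-a2, near-identical genes of this list, held the same counts in every library, so their reads enter the sum, and the count of 5, under both names. K7 stood apart in liver markers, with 74.0 CPM summed over 7 genes against 1.78 to 11.3 CPM in the other knockout hearts and 0.0775 to 1.52 CPM in wild-type hearts. Apoc3 was the 1 gene of the liver list at 0 in all libraries, and no gene of the other lists that had a row was at 0 throughout. In bulk RNA, fewer cells of a type and less RNA per cell cannot be told apart.

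The promoters of 4 of the genes are shown first, because the pair of lactate dehydrogenase genes and the pair of classical lactate transporters are the contrasts on which the levels below turn. Each window runs from 250 bases before to 50 bases after an annotated RefSeq start (GRCm38.p6), 5′ to 3′ on the strand of the gene. Capitals mark ACGTG on either strand, a form of the core RCGTG (R is A or G) of the element bound by hypoxia-inducible factors. The other form, GCGTG, was not searched for and is not marked, though the Slc16a1, Ldha and Ldhb windows below contain it. Where ACGTG on one strand overlaps its copy on the other, the capitals read CACGTG, the E-box that MYC and related factors can also bind. Slc16a3 lies at chr11:120948817-120949116, Slc16a1 at chr3:104638414-104638713, the first Ldha window at chr7:46845554-46845853 and Ldhb at chr6:142507908-142508207, the last on the minus strand and the others on the plus strand.
Slc16a3: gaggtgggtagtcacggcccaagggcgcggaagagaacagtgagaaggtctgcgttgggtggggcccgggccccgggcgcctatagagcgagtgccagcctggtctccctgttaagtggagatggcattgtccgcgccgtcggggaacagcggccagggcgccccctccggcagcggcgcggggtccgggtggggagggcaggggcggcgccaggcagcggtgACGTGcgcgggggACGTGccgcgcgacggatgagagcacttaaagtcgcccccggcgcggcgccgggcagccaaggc
Slc16a1: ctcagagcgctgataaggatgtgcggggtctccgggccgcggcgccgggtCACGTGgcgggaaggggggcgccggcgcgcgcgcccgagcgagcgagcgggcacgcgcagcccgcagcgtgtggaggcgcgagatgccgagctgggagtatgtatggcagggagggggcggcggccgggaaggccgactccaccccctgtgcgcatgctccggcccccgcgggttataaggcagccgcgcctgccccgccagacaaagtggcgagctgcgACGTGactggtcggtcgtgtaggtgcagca
Ldha: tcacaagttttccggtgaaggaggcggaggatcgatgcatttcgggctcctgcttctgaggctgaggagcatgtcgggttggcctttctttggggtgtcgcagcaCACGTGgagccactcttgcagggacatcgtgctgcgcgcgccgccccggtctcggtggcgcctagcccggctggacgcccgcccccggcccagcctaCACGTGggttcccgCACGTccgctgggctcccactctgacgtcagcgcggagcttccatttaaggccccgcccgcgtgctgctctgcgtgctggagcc
Ldhb: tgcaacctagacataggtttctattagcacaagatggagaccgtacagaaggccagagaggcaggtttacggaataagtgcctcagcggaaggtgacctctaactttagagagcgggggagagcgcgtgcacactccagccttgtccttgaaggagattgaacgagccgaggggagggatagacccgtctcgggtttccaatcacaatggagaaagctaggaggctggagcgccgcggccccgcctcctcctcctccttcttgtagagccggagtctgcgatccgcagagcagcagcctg

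ACGTG was found at 3 places in the Ldha window, 2 of them reading CACGTG, at 2 places in the Slc16a1 window, 1 of them reading CACGTG, and at 2 places in the Slc16a3 window. The Ldhb window held no ACGTG. Windows were available for 8 of the 10 genes, 10 windows in all, and 3 of these windows held ACGTG. Among 32851 RefSeq promoter windows of this length, 19.6% held ACGTG and 7.15% held CACGTG. Slc16a4, Slc16a10, Mpc1 and Mpc2 had windows without ACGTG, and the second Ldha window held none either. A match describes the letters and not a binding site.

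Across the transcripts no difference between the genotypes passed the test. Of the 10 genes, 0 had an edgeR adjusted p under 0.05, where 0% of all 13832 tested genes were called, and 1, Slc16a3, had an unadjusted p under 0.05, where 4.06% of all tested genes did (562 genes). DESeq2 and limma-voom also called 0 of the 10. In 0 of the 10 did the values of the groups stay apart without overlap, against 0.253% of all tested genes. Fold changes were positive for 7 genes and negative for 3, and their median of 0.035 on the log2 scale stood beside 0.0018 for all tested genes. For 7 of them, namely Slc16a1, Slc16a10, Bsg, Mpc1, Mpc2, Ldha and Ldhb, the 95% intervals of the difference reached no further than -12.5% and 24.2%. For the low transcripts Slc16a3, Slc16a4 and Slc16a7 they were wider.

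**Figure D1:**
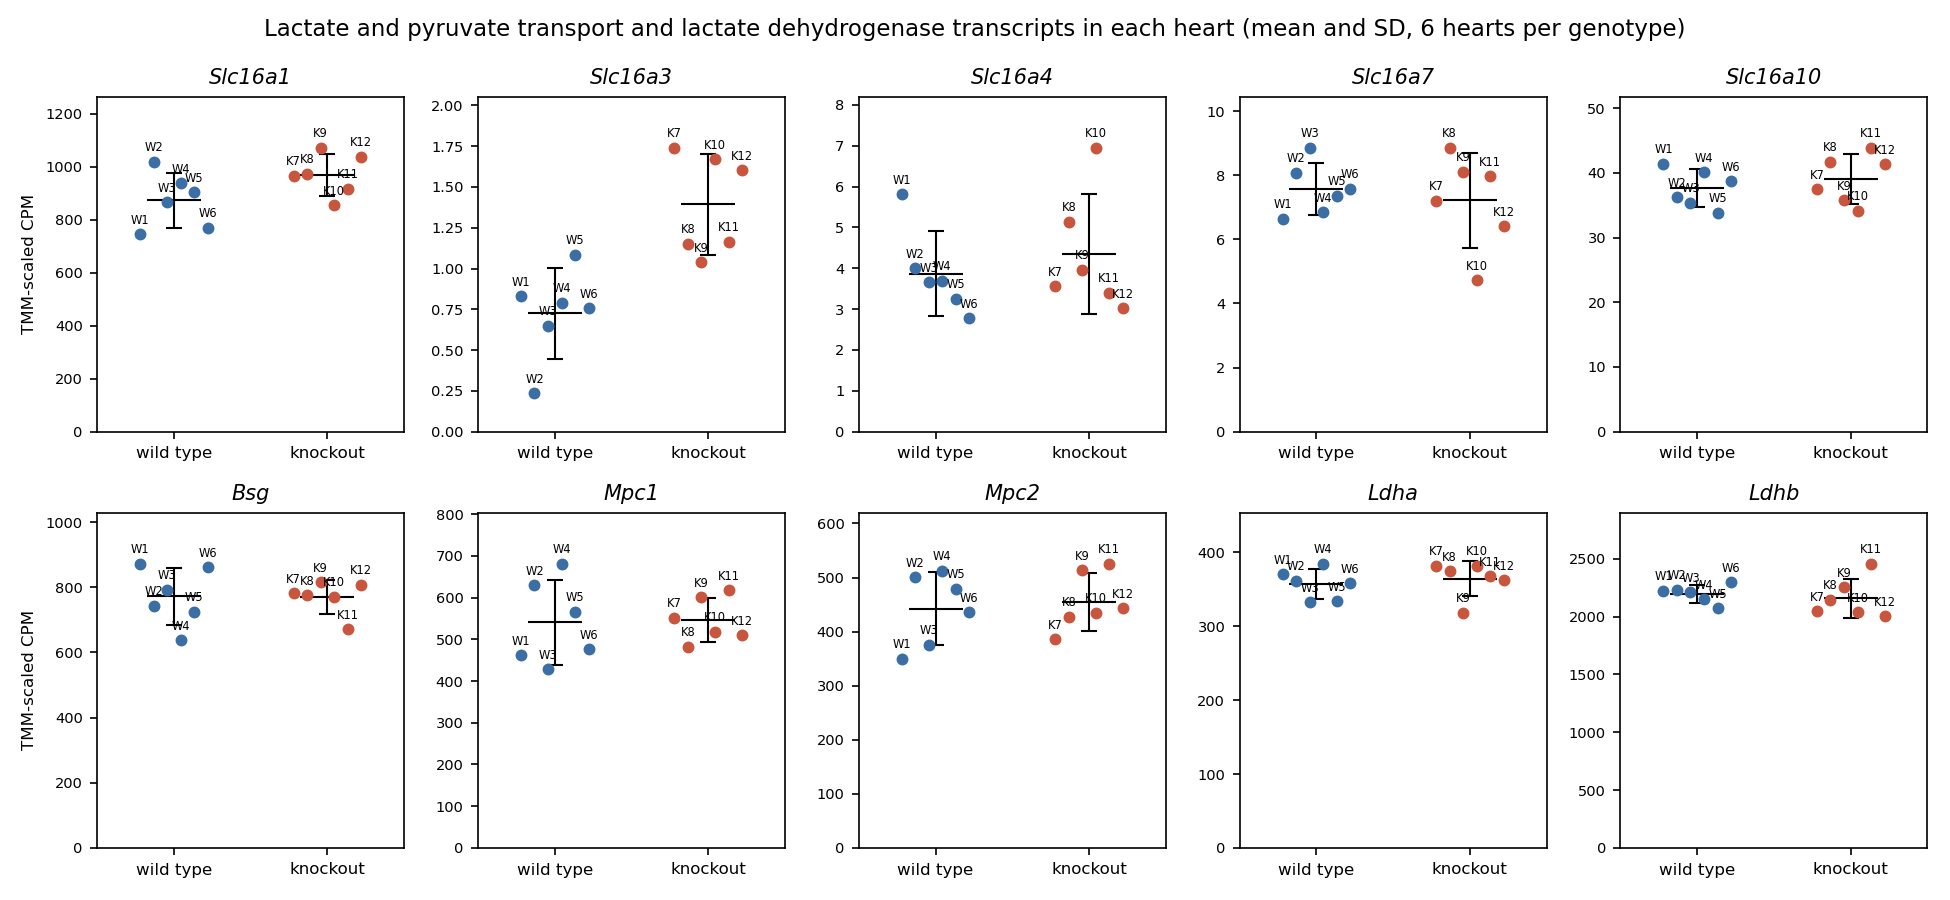
TMM-scaled CPM of the 10 transcripts in each heart, with 1 point per heart, the mean as a horizontal bar and the SD as whiskers (6 hearts per genotype, axes from 0). The groups overlap in every panel; in Slc16a3, 5 of 6 knockout hearts lie above W5, the highest wild-type heart at 1.08 CPM.

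The lactate transporters come first. Slc16a1, on chromosome 3 from 104638664 to 104658462, encodes MCT1, the main lactate transporter of cardiac myocytes. It ran from 745 CPM in W1 to 1019 CPM in W2 in wild-type hearts (median 884.5) and from 855 CPM in K10 to 1072 CPM in K9 in knockout hearts (median 969.6). The ranges overlapped over most of their length, with 2 of 6 knockout hearts above every wild-type heart and 2 of 6 wild-type hearts, W1 and W6, below every knockout heart. The log2 fold change was 0.15 (SE 0.08, or 11.1% higher, 95% interval -0.704% to 24.2%), with an edgeR adjusted p of 0.999 and an unadjusted p of 0.065. The unadjusted p came under 0.05 with limma-voom (0.048, and 0.041 with library weights), with scaling by totals alone (0.039), with 1 surrogate variable (0.030), and without W2 (0.016), W4 (0.045), K10 (0.031) or both W2 and K7 (0.023). Under the other alternatives the unadjusted p stayed above 0.05. It was highest in edgeR without W1 (0.169, log2 fold change 0.11), K9 (0.152), W6 (0.141) or K12 (0.129). The adjusted p was 0.885 or above under every alternative. MCT1 is also the lactate transporter of red cells, and W2, highest in red cell markers, was the highest wild-type heart for Slc16a1, with a log2 fold change of 0.20 without it. W3, next in red cell markers at 14181 CPM, had 865.8 CPM of Slc16a1, below the wild-type median. Over the 12 hearts Slc16a1 gave r of 0.27 with the log2 sum of red cell markers. Smooth muscle and pericyte markers, 4 of 4 detected, moved in the same direction as Slc16a1. They summed to 492.5 to 677.5 CPM in wild-type hearts (mean 596) and 579 to 771 CPM in knockout hearts (mean 649), with 1 of 4 genes at an unadjusted edgeR p under 0.05 and 0 called. K9 was highest of all hearts in Slc16a1 and in the sum of these markers, and W6, lowest in the sum, was next to lowest in Slc16a1. Single genes set both sums. In K9 Acta2 was highest of all hearts, at 269.7 CPM, while Myh11 and Tagln, at 45.9 and 29.6 CPM, lay within the wild-type range. In W6 Rgs5 was lowest of all hearts, at 265.7 CPM, while Myh11, at 52.0 CPM, was highest of the wild-type hearts. The part of red cell or smooth muscle RNA in the Slc16a1 values was not tested.

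Slc16a3, on chromosome 11 from 120948484 to 120959000, encodes MCT4, the transporter known for lactate export from glycolytic cells and fast muscle fibres. Its reads were few, with 11, 3, 8, 9, 14 and 9 in W1 to W6 and 22, 13, 11, 18, 13 and 18 in K7 to K12. Scaled, this gave 0.236 to 1.08 CPM in wild-type hearts (median 0.774) and 1.04 to 1.74 CPM in knockout hearts (median 1.38). All of the knockout hearts lay above the wild-type median and 5 of 6 above every wild-type heart, W5 lay above K9, and W2 was lowest. The log2 fold change was 0.94 (SE 0.34, or 1.91-fold, 95% interval 1.17-fold to 3.13-fold), with an edgeR adjusted p of 0.999 and an unadjusted p of 0.012. It was the largest of the 10 and the only one whose interval did not include 0, and it was not called. The gene reached the level the filter asks for, 0.874 CPM, in 6 of 6 knockout hearts and 1 of 6 wild-type hearts, so it entered the test through the group in which it was higher.

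Counting error is large at this depth. The 3 reads of W2 have an exact Poisson interval of 0.619 to 8.77 reads, and the 22 reads of K7 one of 13.8 to 33.3 reads, both for counting error alone. Without both W2 and K7 the log2 fold change of Slc16a3 was 0.67 and its unadjusted edgeR p 0.056 (adjusted p = 0.965), the highest unadjusted p of its 23 alternatives, whose adjusted p ran from 0.789 to 1. MCT4 is also a transporter of neutrophils and fast skeletal muscle. The neutrophil markers with a row, 3 of 4, summed to 0.378 to 4.00 CPM in wild-type and 0.278 to 5.15 CPM in knockout hearts. K7 was highest in these markers and in Slc16a3, while W2, next highest in the markers, was lowest in Slc16a3. The fast skeletal muscle markers, 8 of 8 with a row, summed to 22.4 to 29.3 CPM in wild-type and 19.5 to 25.2 CPM in knockout hearts. Red cell markers, 6 of 7 with a row, ran against Slc16a3. Their mean sum was lower for the knockouts, though the medians lay closer, as given above. W2 and W3, with the highest red cell sums at 30645 and 14181 CPM, had the lowest Slc16a3, while K7, next at 10934 CPM, had the highest. The liver sums above were higher in every knockout heart than in any wild-type heart. The part of any of these in the Slc16a3 values was not tested.

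Slc16a7, on chromosome 10 from 125219270 to 125389586, encodes MCT2, a transporter with high affinity for lactate and pyruvate. It ran from 6.65 to 8.86 CPM in wild-type hearts (median 7.47) and from 4.73 to 8.86 CPM in knockout hearts (median 7.59). K10 and K12 lay below every wild-type heart, K10 by the most, and the other 4 knockout hearts spanned the upper wild-type range (log2 fold change -0.07, SE 0.15, edgeR adjusted p = 0.999). Without K10 the log2 fold change was 0.027, so its sign rested on that heart.

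Slc16a4, on chromosome 3 from 107291230 to 107312115, and Slc16a10, on chromosome 10 from 40033532 to 40142270, belong to the family by sequence. Slc16a10 carries aromatic amino acids and thyroid hormone rather than lactate, and the substrate of Slc16a4 is less well established. Slc16a10 ran from 33.9 to 41.4 CPM in wild-type hearts (median 37.5) and from 34.1 to 43.9 CPM in knockout hearts (median 39.4), with K8 and K11 above every wild-type heart, W5 below every knockout heart and the others overlapping (log2 fold change 0.05, SE 0.08). Slc16a4 ran from 2.78 to 5.82 CPM in wild-type hearts (median 3.68) and from 3.03 to 6.96 CPM in knockout hearts (median 3.76), with W1 highest among wild-type and K10 highest among knockout hearts (log2 fold change 0.16, SE 0.23). K10 was thus the heart with the highest Slc16a4 and the lowest Slc16a7, and without it the Slc16a4 log2 fold change was -0.021. In edgeR the adjusted p was 0.999 for both genes.

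Bsg, on chromosome 10 from 79704358 to 79711979, encodes basigin, the membrane glycoprotein that MCT1 and MCT4 need to reach the cell surface. It ran from 637.5 CPM in W4 to 872 CPM in W1 in wild-type hearts (median 768) and from 671 CPM in K11 to 816 CPM in K9 in knockout hearts (median 779). The means were 772 ± 88.8 and 771 ± 52.2 CPM (SD, n = 6 each), and every knockout heart lay within the wild-type range. The log2 fold change was -0.0021 (SE 0.07), a difference between -10.4% and 11.2% by its 95% interval. Its sign changed under limma-voom, under scaling by library totals, and without W1, W3, W6 or K11.

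The carrier subunits Mpc1 and Mpc2, which form the mitochondrial pyruvate carrier as a heterodimer, did not separate the genotypes either. Mpc1 lies on chromosome 17 from 8283787 to 8297667 and Mpc2 on chromosome 1 from 165461260 to 165481218. Mpc1 ran from 429 CPM in W3 to 681 CPM in W4 in wild-type hearts (median 521) and from 482 CPM in K8 to 617 CPM in K11 in knockout hearts (median 534.5). All knockout hearts lay within the wild-type range (log2 fold change 0.02, SE 0.10, 95% interval -12.5% to 16.8%). Mpc2 ran from 350.0 CPM in W1 to 513 CPM in W4 (median 457) and from 386 CPM in K7 to 525 CPM in K11 (median 439), with a log2 fold change of 0.04 (SE 0.09, 95% interval -10.3% to 18%). In edgeR the adjusted p was 0.999 for both. Of the exon bases of Mpc1, 23.4% lie opposite exons of 4930506C21Rik, whose own row held 6.13% as many reads, and none of the sources used here says whether counting used strand, so reads of the overlap could be in either row.

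Ldhb encodes the H subunit of lactate dehydrogenase, which predominates in heart, and Ldha the M subunit, which predominates in glycolytic muscle. Ldhb lies on chromosome 6 from 142490249 to 142507957 and Ldha on chromosome 7 from 46842274 to 46855627. Ldhb ran from 2075 CPM in W5 to 2298 CPM in W6 in wild-type hearts (median 2218) and from 2003 CPM in K12 to 2456 CPM in K11 in knockout hearts (median 2098). K7, K10 and K12 lay below every wild-type heart and K11 above every one, so the knockout hearts surrounded the wild-type range (log2 fold change -0.03, SE 0.06, 95% interval -10.1% to 7.09%). Ldha ran from 332.5 CPM in W3 to 384 CPM in W4 (median 359.9) and from 318 CPM in K9 to 382 CPM in K7 (median 371). K9 lay below every other heart and the remaining knockout hearts overlapped the wild-type range (log2 fold change 0.03, SE 0.06, 95% interval -6.56% to 11.5%). In edgeR the adjusted p was 0.999 for both. Of the 50-base words of the longest annotated transcript, 27% for Ldhb, 16.6% for Ldha and 29.6% for Mpc1 also occur in transcripts of other annotated genes, for Ldhb all in Gm5514. How reads with several places were counted is not given, so the levels of these 3 genes are uncertain to that extent.

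**Figure D2:**
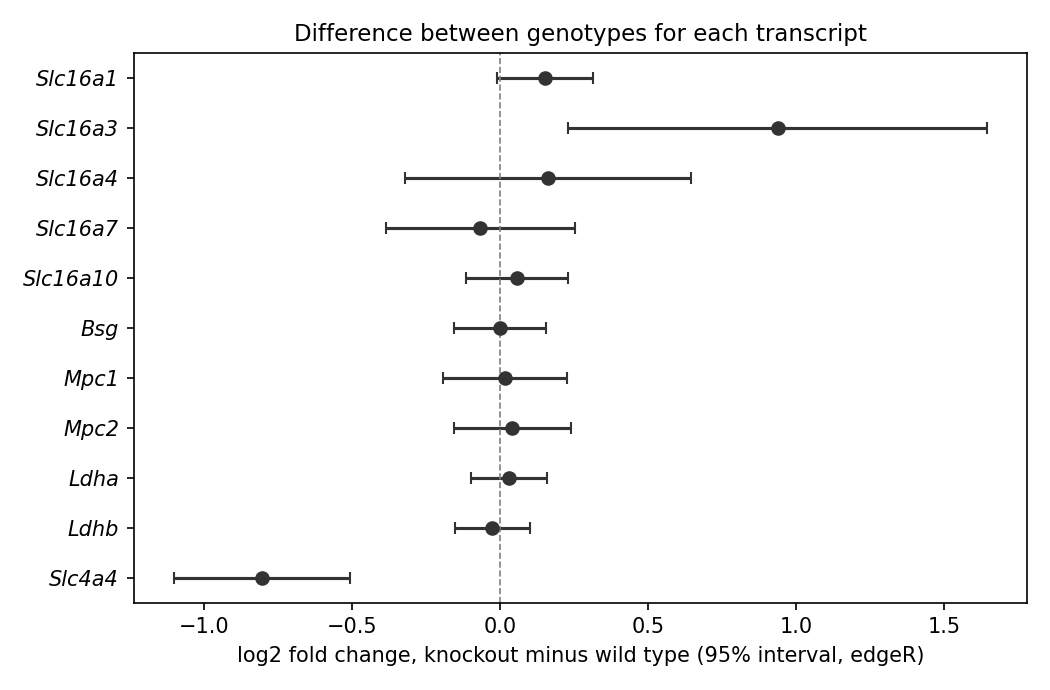
Log2 fold change of each transcript, knockout minus wild type, with its 95% interval from the edgeR fit, and Slc4a4 below for reference. Of the 10 intervals, 9 include 0. Slc16a3, at 0.94, is the exception, with an adjusted p of 0.999.

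Levels can be set beside each other per length of exon, as RPKM, the CPM per kilobase of exon over the union of annotated exons. Over the 12 hearts the order was Ldhb at 1670 ± 99.0, Bsg at 459 ± 41.3, Mpc2 at 438 ± 57.0, Mpc1 at 369.8 ± 52.5, Slc16a1 at 208 ± 22.9 and Ldha at 190.3 ± 11.4 RPKM (mean ± SD, n = 12 hearts). The low group followed, with Slc16a10 at 5.83 ± 0.51, Slc16a4 at 1.61 ± 0.49, Slc16a7 at 0.642 ± 0.10 and Slc16a3 at 0.238 ± 0.101 RPKM. Between Ldha and Slc16a10, next to each other in this order, the median ratio within a heart was 32.3. Bsg exceeded Mpc2 in 7 of 12 hearts and Slc16a1 exceeded Ldha in 9 of 12, so these neighbours did not differ beyond their spread. Mpc2 exceeded Mpc1 in 12 of 12 hearts, though their ranges overlapped, and the order of this pair depends on the length used. With the longest annotated transcript in place of the union, Mpc1 rose to 566 RPKM and second place, and 7 of the 10 genes kept their place. The ranges of the other neighbours over the 12 hearts did not overlap.

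**Figure D3:**
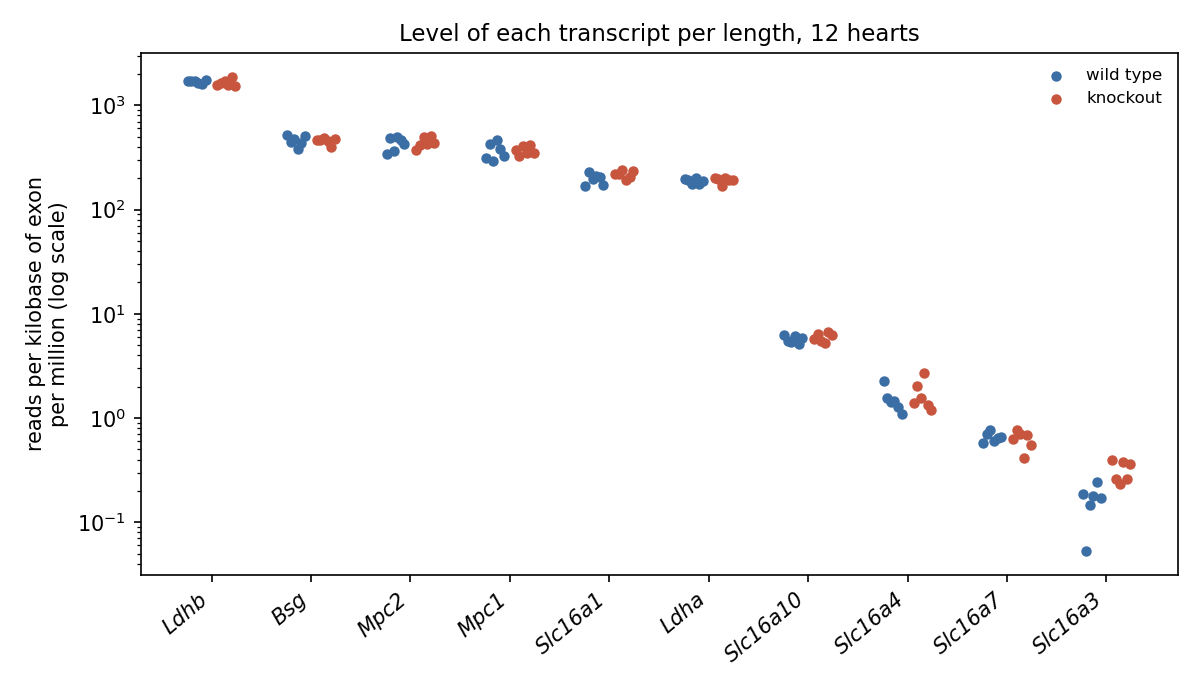
RPKM of the 10 transcripts on a log axis, ordered by their mean over 12 hearts, with 1 point per heart (wild type left, knockout right in each pair). Ldhb is highest at 1670 RPKM, and the 4 lowest, all SLC16 transporters, lie at 5.83 RPKM or less.

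Ratios within a heart do not depend on the scaling of its library. Ldhb exceeded Ldha 8.13-fold to 9.66-fold in wild-type hearts (mean 8.97 ± 0.523, SD, n = 6) and 7.75-fold to 10.3-fold in knockout hearts (mean 8.65 ± 1.08, SD, n = 6). Ldhb thus made up 89.1% to 90.6% of the sum of both in wild type and 88.6% to 91.1% in knockout. K9, and K11 at 9.70, lay above every wild-type heart in this ratio, and K7, K10 and K12 lay below all of them. The knockout range therefore enclosed that of wild type.

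Among the lactate transporters, Slc16a1 made up at least 99.5% of the summed RPKM of Slc16a1, Slc16a3 and Slc16a7 in every heart (99.5% to 99.7%). The larger relative difference in Slc16a3 thus concerned a transcript of 0.163 ± 0.063 RPKM in wild-type and 0.314 ± 0.069 RPKM in knockout hearts (SD, n = 6 each), beside 197 ± 23.4 and 219 ± 17.8 RPKM for Slc16a1. Bsg exceeded that sum 1.78-fold to 3.07-fold in wild-type hearts and 1.92-fold to 2.37-fold in knockout hearts. W1 and W6, at 3.07 and 2.93, were the highest of the 12 and the other hearts overlapped. The ratio of Mpc1 to Mpc2 was 0.763 to 0.926 in wild-type and 0.787 to 0.996 in knockout hearts, with K7 highest.

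**Figure D4:**
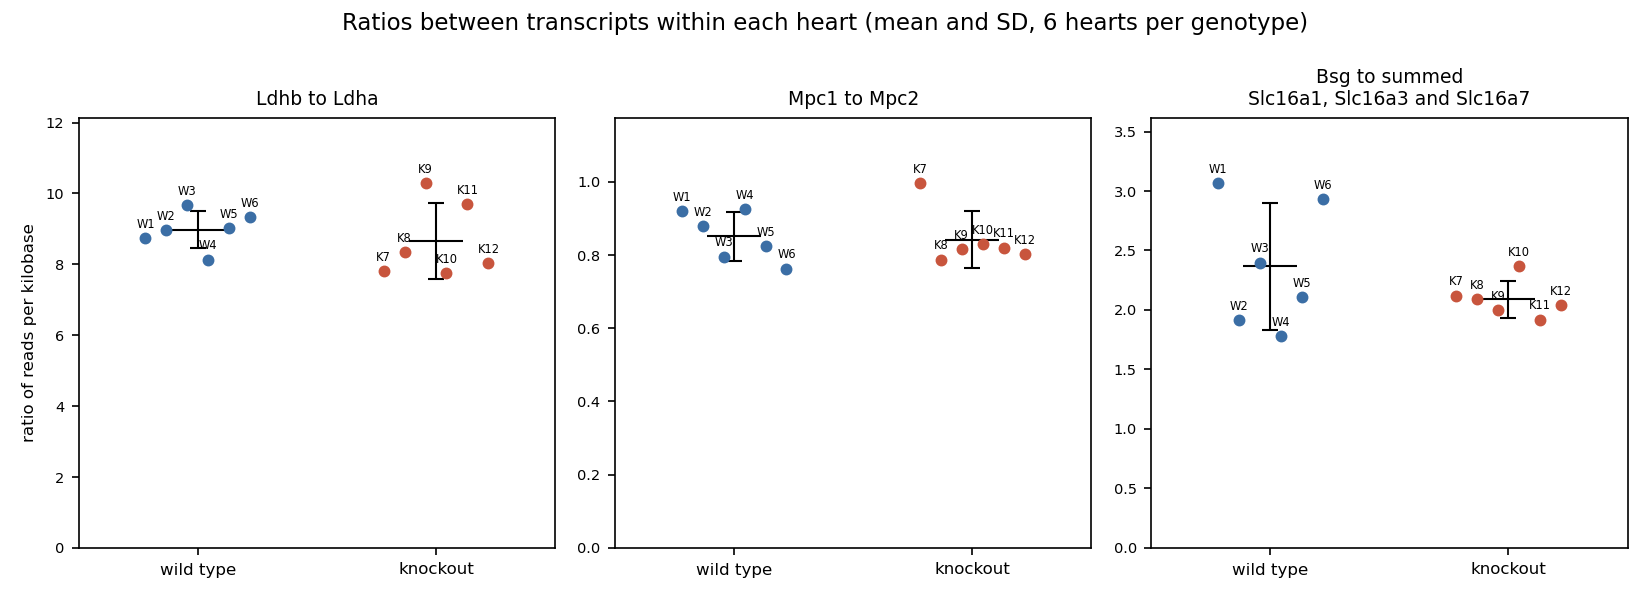
Ratios of reads per kilobase within each heart, with 1 point per heart, the mean as a horizontal bar and the SD as whiskers (6 hearts per genotype). In all 3 panels the groups overlap; W1 and W6 are highest for Bsg over the lactate transporters, at 3.07 and 2.93.

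The transcripts differed in how much they varied between hearts. The coefficient of variation over the 12 hearts was 5.93% for Ldhb and 5.97% for Ldha, below the lower quartile of 6.45% for the 1828 tested genes averaging 100 CPM or more. It was 9.0% for Bsg, 11% for Slc16a1, 13% for Mpc2 and 14.2% for Mpc1, against a median of 8.25% for those genes. Mpc2 and Mpc1 lay above their upper quartile of 10.7%, as Slc16a1 did. Counting alone would give 0.623% to 1.53% for these 6 genes. For Slc16a3 the spread was 42.3%, which includes the difference between the groups, and counting alone would give 28.4%. Within wild-type hearts the Slc16a3 spread was 38.6% against 33.3% from counting, and within knockout hearts 22.1% against 25.1%.

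Mpc1 and Mpc2 varied together, and marker sums given below varied with both genes. How often other pairs of genes reach such values was not computed. Over the 12 hearts the log2 CPM of Mpc1 and Mpc2 gave a Pearson r of 0.84 (permutation p = 0.00097, adjusted over 45 pairs of the 10 genes 0.044) and a Spearman rho of 0.83 (permutation p = 0.0014, adjusted 0.061), both two-sided. Without W3 and W4, the hearts farthest from the median of Mpc1, r was 0.79, and it was 0.90 within wild-type and 0.69 within knockout hearts. Of the 45 pairs, 1 passed 0.05 after adjustment by r and 0 by rho. W2, W4, K9 and K11 were the 4 highest hearts for both subunits, so the high values came from both genotypes. Bsg ran the other way from Mpc1 (r -0.75, permutation p = 0.0048, adjusted 0.11; rho -0.73, permutation p = 0.0093, adjusted 0.21), which did not pass, and without W4 and K11 r was -0.53.

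W4 and K11, the highest hearts for Mpc1 and Mpc2 in their groups and the lowest for Bsg, also had the lowest sums of cardiac myocyte markers, at 33452 and 33200 CPM. W1 and W3, the lowest of all hearts for both carrier subunits, had the highest sums, at 41000 and 41116 CPM. In the 8 other hearts the sums ran from 35682 to 38571 CPM. Ryr2 of this list went the other way in W4, at 3586 CPM against 3274 CPM in W3. The other genes of the list were lower in W4 than in W3. In K11 only Myh6, at 14223 CPM, was lowest of the knockout hearts. CPM values share a fixed total, so abundant myocyte transcripts and the rest are not independent. The summed fibroblast markers, 5 of 5 detected, ran the other way. They were highest of their groups in W4 and K11, at 1562 and 1717 CPM, and lowest of all hearts in W3 and W1, at 1220 and 1251 CPM. Dcn held most of this sum, with 1216 CPM in W4 and 1350 CPM in K11. Dcn, Pdgfra and Lum were higher in W4 than in W3 and highest of the knockout hearts in K11. Col1a1 and Col1a2 did not follow, at 48.8 and 112.5 CPM in W4 against 54.5 and 122.2 CPM in W3. The summed endothelial markers, 5 of 5 detected, were low where Bsg was low, at 646 CPM in W4 and 652 CPM in K11. W2 at 634 CPM was the 1 heart below them, and the sums ran from 660.1 to 741.5 CPM in the other 9 hearts. Of this list Pecam1 was higher in W4, at 108.5 CPM, than in W1, at 101.1 CPM, and the other genes were lower in W4 than in W1. Over the 12 hearts the log2 sum of cardiac myocyte markers gave r of -0.85 with Mpc1, -0.88 with Mpc2 and 0.80 with Bsg. With the fibroblast sum r was 0.71, 0.82 and -0.68 in the same order. The covariation of Mpc1 and Mpc2 was thus not particular to this pair. The part of these cell types in the pattern was not tested.

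**Figure D5:**
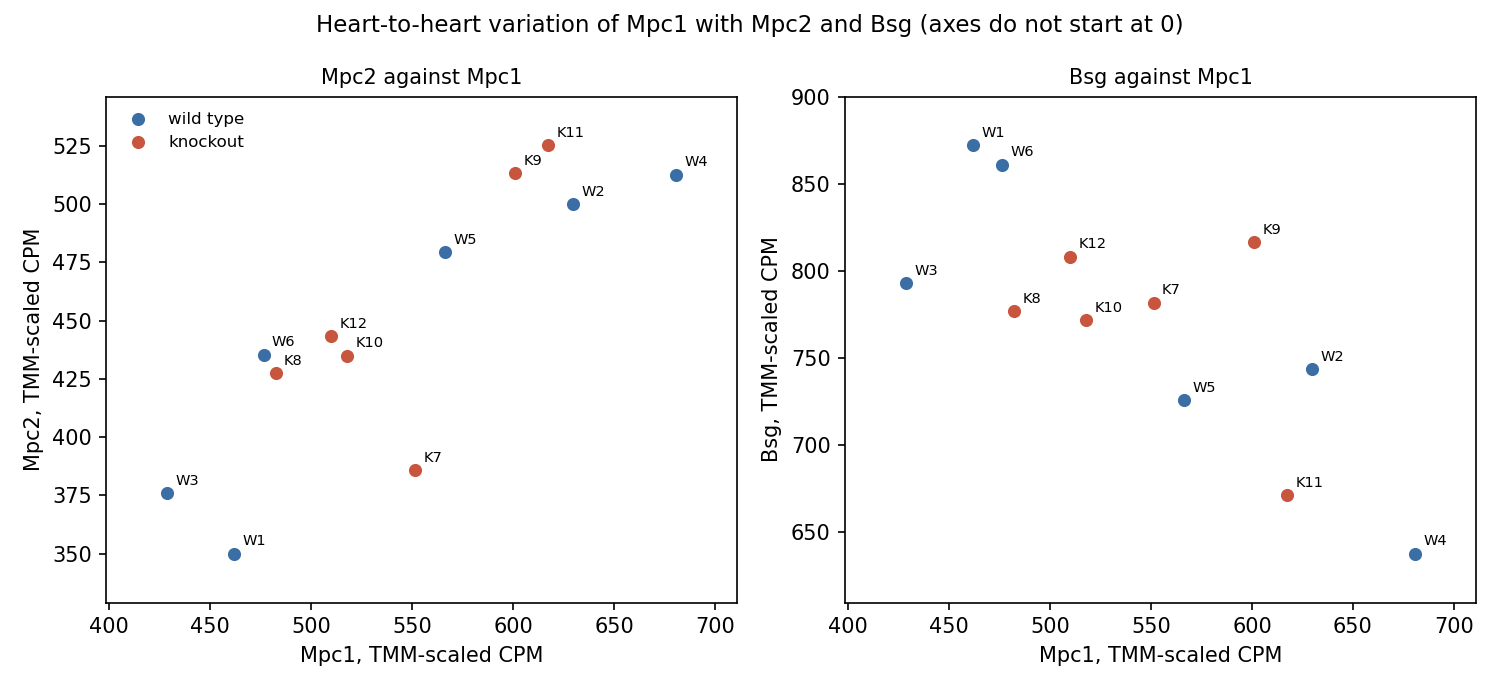
Mpc2 (left) and Bsg (right) against Mpc1 in TMM-scaled CPM, 1 point per heart, coloured by genotype. Mpc2 is higher in hearts with more Mpc1 (r = 0.84, n = 12), and Bsg is lower in W4 and K11, with 637.5 and 671 CPM.

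The genes whose pattern over the 12 hearts was most like each of the 10 were picked as the highest Pearson r among 10364 named genes averaging 5 CPM or more. They are a description, since a choice among so many always finds high values over 12 hearts. The closest were Il15 (r 0.97) and Asah1 (r 0.93) for Mpc1, Neu1 and Dnaja3 (r 0.94 each) for Bsg, and Ppp2r2a (r 0.92) and Mtpn (r 0.91) for Mpc2. For Slc16a3 they were Mrpl27 (r 0.90) and P3h1 (r 0.87), for Slc16a1 Piga and Ankrd44 (r 0.86 each), for Slc16a4 Cep19 (r 0.87) and Dll1 (r 0.86), and for Slc16a7 Fbxl22 (r 0.87) and Id2 (r 0.86). For Slc16a10 they were Tpp1 (r 0.84) and Mgat3 (r 0.83), for Ldha Acss1 and Nrf1 (r 0.84 each), and for Ldhb Gemin7 (r 0.87) and Sdc1 (r 0.86). None of the 10 genes was among those closest to another of them.

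The rest of the route was read from lists of 43 genes, of which 36 were tested. Of these 0 passed the edgeR test over all genes in either direction and 0 had an unadjusted p under 0.05. Fold changes were positive for 19 and negative for 17, with a median of 0.005 on the log2 scale beside 0.0018 for all tested genes. DESeq2 and limma-voom also called 0 of them.

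Among 12 other monocarboxylate carriers 7 were tested, with log2 fold changes from -0.09 for Emb, the partner protein of MCT2, to 0.15 for Slc16a13 (median 0.07). Slc16a6, a ketone body transporter, had means of 23.2 and 24.5 CPM (wild type, then knockout, here and below). Slc5a8, a sodium-coupled lactate transporter, had 0 reads in every library, and Slc16a5, Slc16a11, Slc16a14 and Slc5a12 were too low to be tested. Of the other lactate dehydrogenase genes, Ldhd, which acts on D-lactate, averaged 36.4 and 35.4 CPM (log2 fold change -0.04, SE 0.10), while Ldhc, the testis form, held 2 reads in all 12 hearts and Ldhal6b 45.

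The 13 genes of pyruvate oxidation and carboxylation were all tested, with a median log2 fold change of 0.01. Pdha1, a subunit of pyruvate dehydrogenase, averaged 1819 and 1871 CPM (log2 fold change 0.04, SE 0.05). Pdk4, the kinase that switches pyruvate dehydrogenase off in fasting, had the largest difference of these lists. It ran from 310.1 to 774 CPM in wild-type hearts (median 571) and from 230.2 to 645 CPM in knockout hearts (median 457), so the groups overlapped widely (log2 fold change -0.35, SE 0.24), with an unadjusted p of 0.17 and an adjusted p of 0.999 in edgeR.

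The 10 genes of the NADH shuttles, which carry reducing equivalents from lactate oxidation into mitochondria, had a median log2 fold change of 0.01. They held the smallest p values of all these lists in both directions, none under 0.05. On the higher side were Slc25a11, the oxoglutarate carrier, at 728 ± 42.7 and 778 ± 20.5 CPM (unadjusted p of 0.10) and Gpd1l at 134.7 and 142.5 CPM (unadjusted p of 0.22). On the lower side were Got1, the cytosolic aspartate aminotransferase, at 566 ± 32.2 and 529 ± 27.5 CPM (unadjusted p of 0.11) and Slc25a13, an aspartate-glutamate carrier, at 197 ± 13.7 and 183 ± 8.96 CPM (unadjusted p of 0.11), with SDs over 6 hearts. In edgeR each had an adjusted p of 0.999. Hcar1, the lactate receptor, was near the lowest level tested, at 1.10 and 0.918 CPM, and Ppargc1a, Esrra, Hif1a and Myc had log2 fold changes from -0.25 to 0.03.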

How the data were processed

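The authors deposited unnormalized read counts per NCBI gene identifier, 1 column for each heart. Their design text has the reads aligned with TopHat and 6 mice in each group. The submitters' processing notes name the mm10 build and, as tools, TopHat, DESeq, CASAVA 1.8 and bcl2fastq. None of the sources used here names the counting program, its annotation, its strand setting or its treatment of reads with several places. Symbols and coordinates came from RefSeq on GRCm38.p6 (23976 of 24061 identifiers matched), exon lengths from the basic set of GENCODE M21 on the same build.

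The quasi-likelihood F test of edgeR 4.0.16 (R 4.3.3) compared knockout with wild type after TMM scaling and filterByExpr (minimum count 10, minimum total 15). The p values of all 13832 genes were adjusted by Benjamini-Hochberg, with calls at 0.05. Each standard error follows from the F statistic and the fold change, and intervals are at 95%. All 10 members passed the filter, Slc16a3 through the knockout group. Permutation tests of pairs used 100000 resamples. Alternatives were DESeq2 1.42.0, limma-voom (limma 3.58.1) plain or with library weights, RLE, upper quartile or no scaling beyond totals, no filter or a stricter one, 1 surrogate variable (sva 3.50.0), robust estimation, the 10 most abundant genes left out, libraries left out and another exon length. The scripts were tested on simulated counts. No pair of libraries agreed within sampling noise (chi-square per degree of freedom 6.36 to 41.4 over 66 pairs).

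The members and lists were chosen with earlier results of these data known. Named are the 10 members, Slc4a4, the list genes past the threshold or else the 2 with the smallest p in each direction, and the 2 genes most like each member; Pdk4 and the other list genes given with values were picked after their values were seen. Of the marker genes listed, Ly6g and Ahsp had no row that matched.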

Additional observations from a re-analysis of the deposited data

Results flagged for a closer look

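A single heart stood far from the other 5 of its genotype in 7 of 50 sets of values, judged by its gap to the nearest heart over the range of the group. For normally distributed values this rule would flag about 1 in 20, or 2.5 of 50. The sets share hearts and genes and their values need not be normal, so the 2 counts cannot be weighed against each other. Among the transcripts these were Bsg in K11, at 670.9 CPM against 772 CPM in the next lowest knockout heart, and Ldha in K9, at 318 CPM against 362 CPM. The ratio of Mpc1 to Mpc2 stood apart in K7, at 0.996 against 0.830 in the next highest knockout heart. In W4, a wild-type heart, Bsg was lower still than in K11, at 637.5 CPM, but it did not stand apart from its group.

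The other 4 were marker sums. In K7 the neutrophil markers summed to 5.15 CPM against 1.51 CPM in the next knockout heart, and the liver markers to 74.0 CPM against 11.3 CPM. In W2 the red cell markers summed to 30645 CPM, and in K11 the fat cell markers summed to 28.3 CPM against 8.63 CPM. W2 was also lowest and K7 highest in Slc16a3, and K11 was highest in Mpc2, and whether these go together was not tested.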

How the results depend on the processing

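None of the 10 members and no gene of the pathway lists was called under any of the alternatives run, and 0 members were called at an adjusted p under 0.1. Over all genes, edgeR called 0, DESeq2 11, edgeR without a low-count filter 16 and with 1 surrogate variable 2, and 0 to 2 when single hearts were left out. Slc4a4 passed with DESeq2 (-0.81, adjusted p = 0.000605), without a filter (-0.81, adjusted p = 0.0135) and without K8 (-0.92, adjusted p = 0.0275), and leaving out single hearts gave -0.92 to -0.74. In the main edgeR fit and under its 21 other alternatives Slc4a4 did not pass. The highest adjusted p was 0.733, in edgeR with robust estimation. Slc16a1, Slc16a3, Slc16a10, Ldha and Ldhb kept the sign of their log2 fold change under every alternative that tested them (Slc16a3 from 0.67 to 1.09), and the filter at a mean of 5 CPM removed Slc16a3 and Slc16a4. The alternatives reuse the same hearts, and Slc16a3 entered the main test through the group in which it was higher. Its kept sign is therefore a description only. Bsg changed sign with limma-voom (0.0026), with library weights (0.0027) and with library totals (0.0016). Leaving out single hearts gave -0.056 to 0.036 for Bsg, -0.043 to 0.089 for Mpc1, -0.019 to 0.084 for Mpc2, -0.021 to 0.317 for Slc16a4 and -0.135 to 0.027 for Slc16a7, each range crossing 0. With the longest transcript the ratio of Mpc1 to Mpc2 was 1.30 in place of 0.847, since the exon length of Mpc1 differs. No paired analysis was possible because the labels give no pairing of hearts between the groups. Depth limits Slc16a3 most, at 149 reads in all.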
